A study of Populus alba x Populus glandulosa with 18 samples.

Results

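Roots of poplar that lack both bHLH58 and bHLH151 were compared with roots that lack bHLH151 alone, which shows what losing bHLH58 adds once bHLH151 is gone. The 6 libraries of this comparison are 3 of bhlh58/151-KO (line 32, called the double knockout here) and 3 of bhlh151-KO (line 40), out of 18 in the series. The other 12 libraries, 3 per group, come from the wild type (WT), bhlh58-KO (line 6), bHLH58-OE (line 20) and bHLH151-OE (line 17), where KO marks a knockout and OE an overexpression line. All plants are of the clone 84K, a hybrid of Populus alba and Populus glandulosa, so the host genome is shared by all groups, and the tissue is root throughout. Each genotype is represented by 1 line, so an effect of a genotype and a peculiarity of its line cannot be told apart. The promoter of the overexpression lines, the knockout alleles, plant age and growth conditions are not given in the labels. Nothing in the labels ties a library to a plant, and p-values therefore measure the spread among these libraries, which may be technical. Of 71159 gene IDs in the table, 40951 reached 1 FPKM in 3 or more of all 18 libraries and were compared. FPKM is a level per transcript length, scaled to the fragments mapped in each library.

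Basic helix-loop-helix (bHLH) proteins are a large family of plant transcription factors. Their basic region contacts DNA, often at short E-box motifs, and their helix-loop-helix region lets members pair with themselves or with one another, so that the partner present can alter which genes are bound. In Arabidopsis, members of the family are known for roles in root hair growth, in vascular cell divisions of the root and in the response to low iron. The table gives IDs without gene names, and no annotation was used here. The roles of the genes below are therefore not stated, the targeted genes themselves were not examined, and root cell type markers could not be looked up.

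Libraries of the same group correlated at 0.982 to 0.986 (Pearson's r of log2 values over IDs), and libraries of the double knockout and bhlh151-KO at 0.955 to 0.961. IDs that reached 1 FPKM numbered 37383 to 37668 in the double knockout and 36450 to 36911 in bhlh151-KO. Sequencing depth is unknown, since the table holds no counts. The median spread between replicates was alike in both groups, with a median SD of 0.123 in the double knockout and 0.126 in bhlh151-KO on the log2(FPKM + 1) scale.

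Many root transcripts differed between the lines, mostly by small amounts, and for the larger differences the bhlh151-KO libraries were in most cases the ones that stood away from all others. With limma on log2(FPKM + 1) and a Benjamini-Hochberg adjusted p under 0.05, 10526 of the 40951 IDs were called (25.7%). The 6419 IDs called higher in the double knockout make 15.7% of those tested and had a median log2 fold change of 0.49. The 4107 called lower make 10.0% and had a median of -0.53. The median of all tested IDs was 0.06. At least 2-fold differences were found in 554 higher IDs (1.35%) and 541 lower IDs (1.32%), at least 4-fold differences in 23 and 28, and at least 8-fold differences in 1 of each direction. With a pseudocount of 0.1 the 2-fold counts were 1324 higher and 869 lower, and the balance turned to 456 higher and 655 lower under median-of-ratios scaling and to 470 and 564 under quantile normalization. In whole roots, fewer cells of a type and less RNA per cell cannot be told apart. The share of calls that were lower depended on scaling: 39% as deposited, 51.6% under median-of-ratios scaling and 49.1% under quantile normalization.

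The levels of the 554 and 541 IDs with at least 2-fold differences were then followed through all 6 groups. They were chosen on the double knockout and bhlh151-KO, so their levels are given as a description. For the 554 higher IDs, the median log2(FPKM + 1) level was 2.64 in bhlh151-KO and 4.08 in the double knockout. It was 4.20 in WT, 4.01 in bhlh58-KO, 4.15 in bHLH58-OE and 3.82 in bHLH151-OE. The double knockout thus sat among the groups that were not used for the choice, while bhlh151-KO sat below all of them. For the 541 lower IDs the picture was mirrored, with a median level of 4.21 in bhlh151-KO and 2.84 in the double knockout. WT stood at 2.61, bHLH58-OE at 2.67, bhlh58-KO at 2.78 and bHLH151-OE, the group closest to bhlh151-KO, at 3.43.

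**Figure D1:**
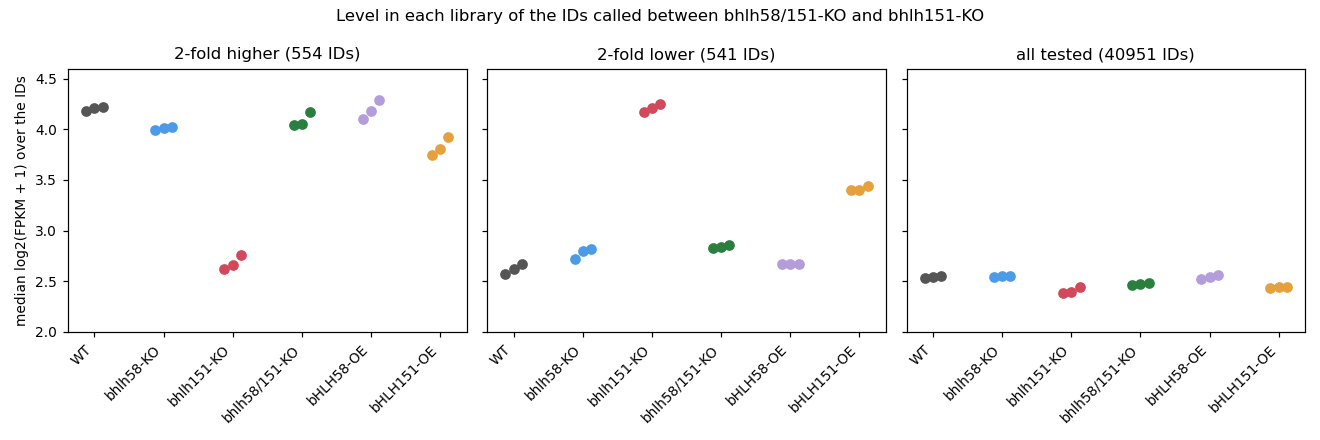
Median log2(FPKM + 1) level over the IDs of each set (y axis, which starts at 2) in every library, by group (x axis), 3 points per group sorted by value. In the left panel the bhlh151-KO libraries lie at 2.62 to 2.76 and the double knockout at 4.04 to 4.17, and in the middle panel bhlh151-KO lies at 4.17 to 4.25 and the double knockout at 2.83 to 2.86.

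The same held ID by ID. In 480 of the 554 higher IDs (86.6%), all 3 bhlh151-KO libraries were below all 15 other libraries of the series, and in 488 of the 541 lower IDs (90.2%) they were above all 15. Over all tested IDs the corresponding shares were 9.84% below and 5.85% above. By the choice, 553 of the 554 and all 541 IDs already had no overlap between bhlh151-KO and the double knockout. Only the other 12 libraries were therefore free to differ, and the shares of all tested IDs here are not a like baseline. The double knockout stood above all 15 others in 43 of the 554 higher IDs (7.76%) and below them in 19 of the 541 lower IDs (3.51%), beside 0.925% and 0.628% of all tested IDs. In summed FPKM, the 554 higher IDs made 25980 ± 1180 (SD, n = 3) in the double knockout and 10259 ± 505 in bhlh151-KO, and WT was at 29162 ± 438. The 541 lower IDs made 21285 ± 592 in bhlh151-KO, beside 8145 ± 215 in the double knockout and 6733 ± 82 in WT.

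Comparisons that share libraries with this one are given side by side only. For the 554 higher IDs the median log2 fold change was 1.23 in the double knockout against bhlh151-KO, -1.40 in bhlh151-KO against WT, -0.13 in the double knockout against WT and 0.11 in the double knockout against bhlh58-KO. For the 541 lower IDs the same medians were -1.25, 1.48, 0.19 and 0.04. Over all tested IDs they were 0.06, -0.11, -0.06 and -0.06.

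The largest fold differences showed this pattern in single IDs. PAxG05Ag0135100 was at 28.2, 25.8 and 29.6 FPKM in the double knockout and at 0.0493, 0.0742 and 0.43 in bhlh151-KO. The groups did not overlap, and all 12 libraries of the other groups were at 29.2 to 38.6, from the upper end of the double knockout upward. The log2 fold change was 4.62 (with an SE of 0.0924, limma adjusted p = 8.71e-17). It was 6.86 with a pseudocount of 0.1 and 5.34 after rescaling to TPM. PAxG05Ag0135300 was at 8.37, 8.39 and 9.34 FPKM against 0.448, 0.0641 and 0.323, again with no overlap, and at 7.49 to 10.4 in the other 12 libraries (2.93, SE 0.112, limma adjusted p = 4.42e-13, with 4.71 at a pseudocount of 0.1 and 3.53 in TPM). In both IDs only line 40 of bhlh151-KO was near 0.

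In the other direction, NewGene_1461 was at 4.59, 4.36 and 4.91 FPKM in the double knockout and 48.0, 47.8 and 46.4 in bhlh151-KO. Outside these groups it was at 1.01 to 2.14 in WT, 2.55 to 3.08 in bhlh58-KO, 2.56 to 2.92 in bHLH58-OE and 12.7 to 15.7 in bHLH151-OE. The double knockout was therefore lower than bhlh151-KO (log2 fold change -3.11 with an SE of 0.122, limma adjusted p = 6.37e-13) and still above every WT library. PAxG07Gg0080800 was at 3.93, 3.45 and 5.49 FPKM against 42.0, 37.1 and 37.7 (-2.93, SE 0.13, limma adjusted p = 2.78e-12). Its next highest group was again bHLH151-OE, at 14.5 to 15.3 FPKM, and the other 3 groups were at 2.38 to 4.49.

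Abundant transcripts moved too. By difference in mean FPKM, PAxG05Gg0148200 had the largest gain, from bhlh151-KO values of 506.0, 462.2 and 483.7 FPKM to 825.3, 884.1 and 839.6 in the double knockout. The groups did not overlap (log2 fold change 0.81 with an SE of 0.0601, limma adjusted p = 3.93e-09), and the other 12 libraries were at 736.9 to 976.9. PAxG14Ag0010700 was at 515.6, 609.1 and 587.1 FPKM against 258.6, 257.8 and 245.1 (1.16, SE 0.0593, limma adjusted p = 1.89e-11), with 476.7 to 693.4 in the other 12. On the lower side, PAxG13Ag0003400 was at 415.7, 389.1 and 419.5 FPKM against 815.9, 740.7 and 756.0 (-0.92, SE 0.0486, limma adjusted p = 3.31e-11). Each bHLH151-OE library of this ID, at 524.2 to 574.1, lay between the double knockout and bhlh151-KO. PAxG05Ag0214300 was at 372.6, 412.4 and 403.4 FPKM against 794.5, 714.0 and 764.3 (-0.93, SE 0.0493, limma adjusted p = 2.99e-11), and its bHLH151-OE libraries, at 543.7 to 554.3, lay in between as well. Neither pair of groups overlapped, and the WT libraries of these 2 lower IDs, at 300.5 to 358.6, were below the double knockout.

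**Figure D2:**
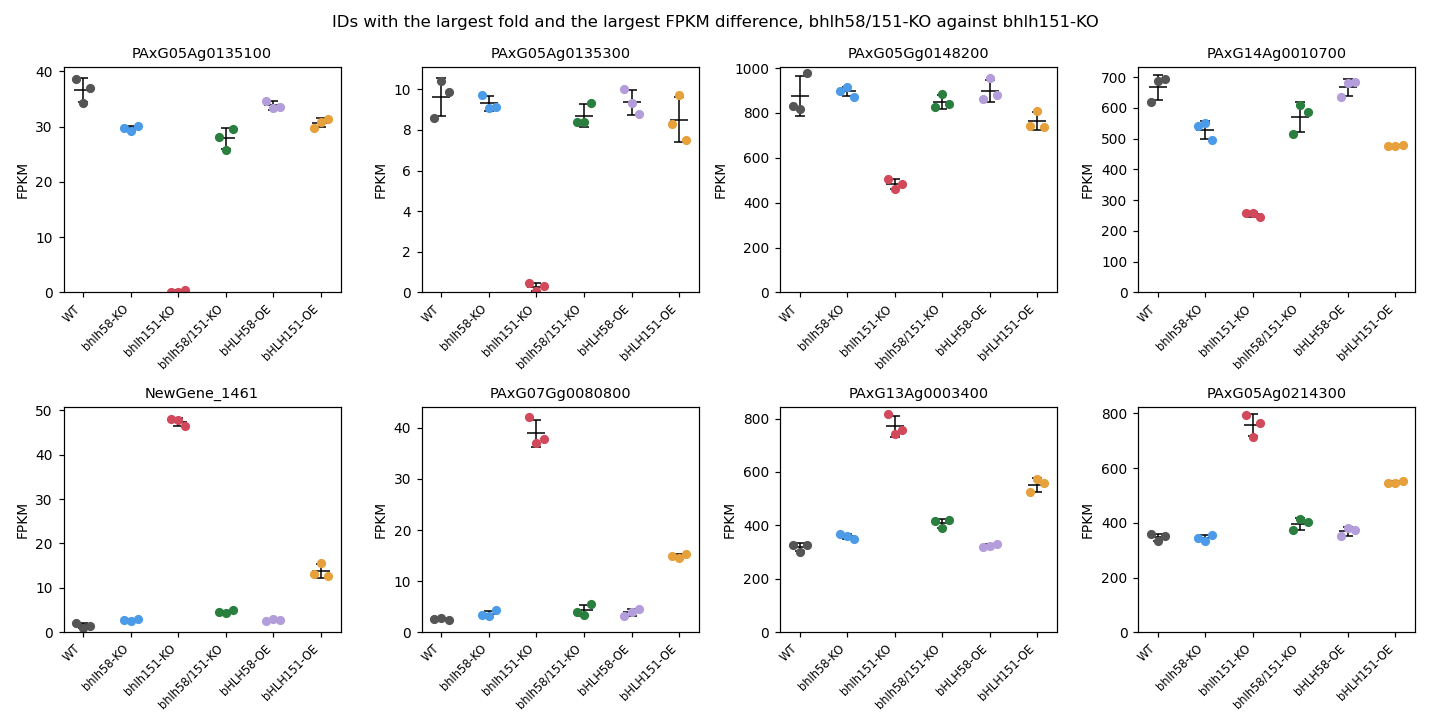
FPKM (y axis, from 0) of the 8 IDs with the largest fold change or the largest FPKM difference, in the 3 libraries of each of the 6 groups (x axis). Points are libraries, bars the mean and SD of 3, the upper row holds IDs higher and the lower row IDs lower in the double knockout, and in each panel bhlh151-KO (red) lies apart from the double knockout (green).

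A question specific to this design is whether removing bHLH58 does the same with and without bHLH151. The comparison of bhlh58-KO with WT measures that removal where bHLH151 is intact, and it shares no library with the comparison of the double knockout with bhlh151-KO. It called 9158 IDs (22.4%), 5264 higher (12.9%) and 3894 lower (9.51%). Changes called in both were more often opposite than alike: 2735 IDs went in opposite directions and 998 in the same direction, so that 73.3% of the 3733 IDs called in both were opposite. No test was made of these counts. Of the 6419 IDs called higher in the double knockout, 25.2% were lower in bhlh58-KO than in WT, beside the 9.51% of all tested IDs, and 10.3% were higher, beside 12.9%. Of the 4107 called lower, 27.2% were higher in bhlh58-KO and 8.16% lower, beside 12.9% and 9.51% of all tested IDs. Seen from bhlh58-KO, 41.5% of its 3894 lower IDs were higher in the double knockout than in bhlh151-KO, beside 15.7% of all. Of its 5264 higher IDs, 21.3% were lower there, beside 10.0% of all. Across all 40951 IDs, the log2 fold changes of both comparisons had a Pearson's r of -0.177 and a Spearman's rho of -0.188, as a description over genes, which are not independent replicates. Across the 26 alternatives in which this was computed, r ran from -0.205 to -0.154 and the opposite share from 71.8% to 75.5%.

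**Figure D3:**
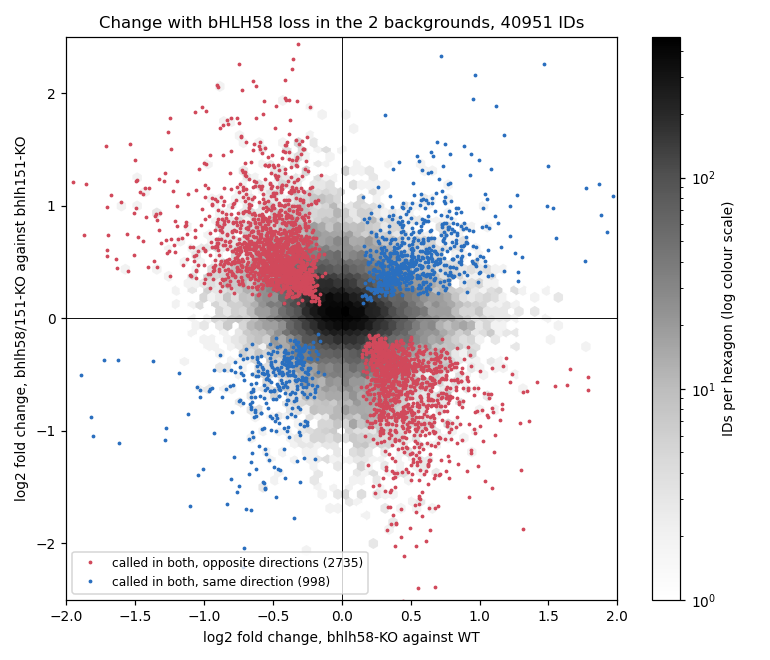
Log2 fold change of bhlh58-KO against WT (x axis) and of the double knockout against bhlh151-KO (y axis) for the tested IDs; grey hexagons give IDs per bin on a log colour scale, and 54 IDs lie outside the axes. The 2735 IDs called in opposite directions (red) fill the upper left and lower right quadrants more densely than the 998 called in the same direction (blue) fill the others.

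The difference between both removals was tested per ID as an interaction contrast, which called 12003 IDs (29.3%). All 2735 IDs called in opposite directions were called in it too. That follows from how the contrast is built, since called changes of opposite sign add up in their difference, and it is no separate evidence. The IDs named here and in the next paragraph were chosen for opposite directions and for a call in this contrast. Their values for the difference are therefore a description, not a separate test. PAxG17Ag0000100 was at 6.94, 8.95 and 8.74 FPKM in the double knockout and 1.40, 3.51 and 1.83 in bhlh151-KO, and at 5.78, 6.49 and 5.42 in bhlh58-KO and 17.4, 18.5 and 21.3 in WT. No library of either pair overlapped, and the ID was higher without bHLH58 in one background and lower in the other. The log2 fold changes were 1.55 and -1.54 (SE 0.184 each, limma adjusted p = 2.62e-06 and 8.64e-06), and their difference was 3.09 (SE 0.26, limma adjusted p = 3.48e-08). PAxG13Gg0034300 was at 47.3, 53.9 and 49.5 FPKM in the double knockout, 19.6, 18.9 and 21.3 in bhlh151-KO, 26.6, 26.7 and 24.1 in bhlh58-KO and 63.7, 61.1 and 67.6 in WT. Both single knockouts were thus low and the double knockout closer to WT (1.29 and -1.28, SE 0.124 each, limma adjusted p = 1.57e-07 and 9.23e-07, with a difference of 2.57, limma adjusted p = 1.77e-09).

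Both IDs named for the other direction were lower without bHLH58 in the bhlh151-KO background and higher in the WT background. PAxG03Ag0056500 was at 6.05, 7.19 and 5.96 FPKM in the double knockout, 26.2, 23.5 and 28.8 in bhlh151-KO, 11.8, 10.4 and 10.3 in bhlh58-KO and 2.33, 4.86 and 4.50 in WT. Every library of bhlh58-KO was above every library of the double knockout. The changes were -1.87 and 1.32 (SE 0.159 each, limma adjusted p = 3.04e-08 and 9.54e-06), and they differed by -3.19 (limma adjusted p = 2.88e-09). PAxG06Ag0048200 was at 7.91, 9.58 and 8.78 FPKM in the double knockout, 22.5, 24.3 and 24.6 in bhlh151-KO, 6.40, 7.31 and 8.15 in bhlh58-KO and 2.35, 2.84 and 1.91 in WT. Here the double knockout overlapped with bhlh58-KO, and all knockouts were above WT (-1.35 and 1.30, SE 0.118 each, limma adjusted p = 4.12e-08 and 4.06e-07, with a difference of -2.65, limma adjusted p = 5.11e-10).

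A smaller set, 998 IDs, was called in the same direction when bHLH58 was lost in either background. Of the 5264 IDs higher in bhlh58-KO, 12.6% were also higher in the double knockout, beside 15.7% of all tested IDs. Of the 3894 lower IDs, 8.6% were also lower there, beside 10.0% of all. The overlap was thus below the share over all IDs, and the IDs named here are single cases. PAxG17Ag0195200 was at 18.0, 20.0 and 19.1 FPKM in the double knockout against 41.0, 37.5 and 46.0 in bhlh151-KO, and at 14.2, 11.8 and 14.0 in bhlh58-KO against 36.7, 29.5 and 35.6 in WT. Both lines without bHLH58 were below all 12 libraries of the other 4 groups, whose lowest value was 26.3 FPKM. The log2 fold changes were -1.08 and -1.29 (SE 0.104 each, limma adjusted p = 1.44e-07 and 1.06e-07), and no difference between them was called (0.20, SE 0.147, limma adjusted p = 0.33). PAxG15Gg0117800 was at 2.90, 2.51 and 4.13 FPKM against 14.0, 11.2 and 11.3, and at 3.06, 3.12 and 3.11 in bhlh58-KO against 7.49, 7.14 and 8.78 in WT. Its level was below WT in bHLH58-OE too (-0.49, limma adjusted p = 0.0376) and in bHLH151-OE (-0.58, limma adjusted p = 0.00269). With loss of bHLH58 it fell in both backgrounds (-1.67 and -1.10, SE 0.134 each, limma adjusted p = 1.26e-08 and 9.84e-06). The difference of -0.57 had a limma adjusted p of 0.0296, which passed 0.05 (0.0511 to 0.0874) when replicate 1 or 2 of the double knockout, replicate 1 of bhlh151-KO, replicate 2 or 3 of bhlh58-KO, or replicate 1 or 2 of WT was left out.

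Shared gains were less even between replicates. NewGene_5669 was at 51.4, 87.4 and 56.9 FPKM in the double knockout against 18.3, 9.59 and 10.9 in bhlh151-KO, and at 47.5, 83.0 and 52.5 in bhlh58-KO against 24.1, 25.2 and 14.8 in WT. The groups of each pair did not overlap (2.26 and 1.47, SE 0.334 each, limma adjusted p = 0.000161 and 0.00641). It was also higher than WT in bHLH58-OE (1.69, limma adjusted p = 0.00973) and in bHLH151-OE (2.22, limma adjusted p = 0.000195), so overexpression of bHLH58 and its loss went with the same direction. PAxG17Ag0214200 was at 101.3, 128.7 and 89.3 FPKM against 80.0, 30.9 and 37.4, and at 74.1, 83.7 and 85.8 in bhlh58-KO against 23.2, 23.5 and 18.4 in WT (1.20 and 1.86, SE 0.313 each, limma adjusted p = 0.0117 and 0.000794). It was higher than WT in the remaining lines too, by 1.69 in bHLH58-OE (limma adjusted p = 0.0064), 2.00 in bHLH151-OE (0.000269) and 1.04 in bhlh151-KO (0.0145). Replicate 1 of bhlh151-KO lay far above the other libraries of its group for this ID. Its call against bhlh151-KO was lost without replicate 2 of the double knockout (limma adjusted p = 0.0517), without replicate 2 or 3 of bhlh151-KO (0.0539 and 0.0504) and in a fit of only both groups (0.0951).

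**Figure D4:**
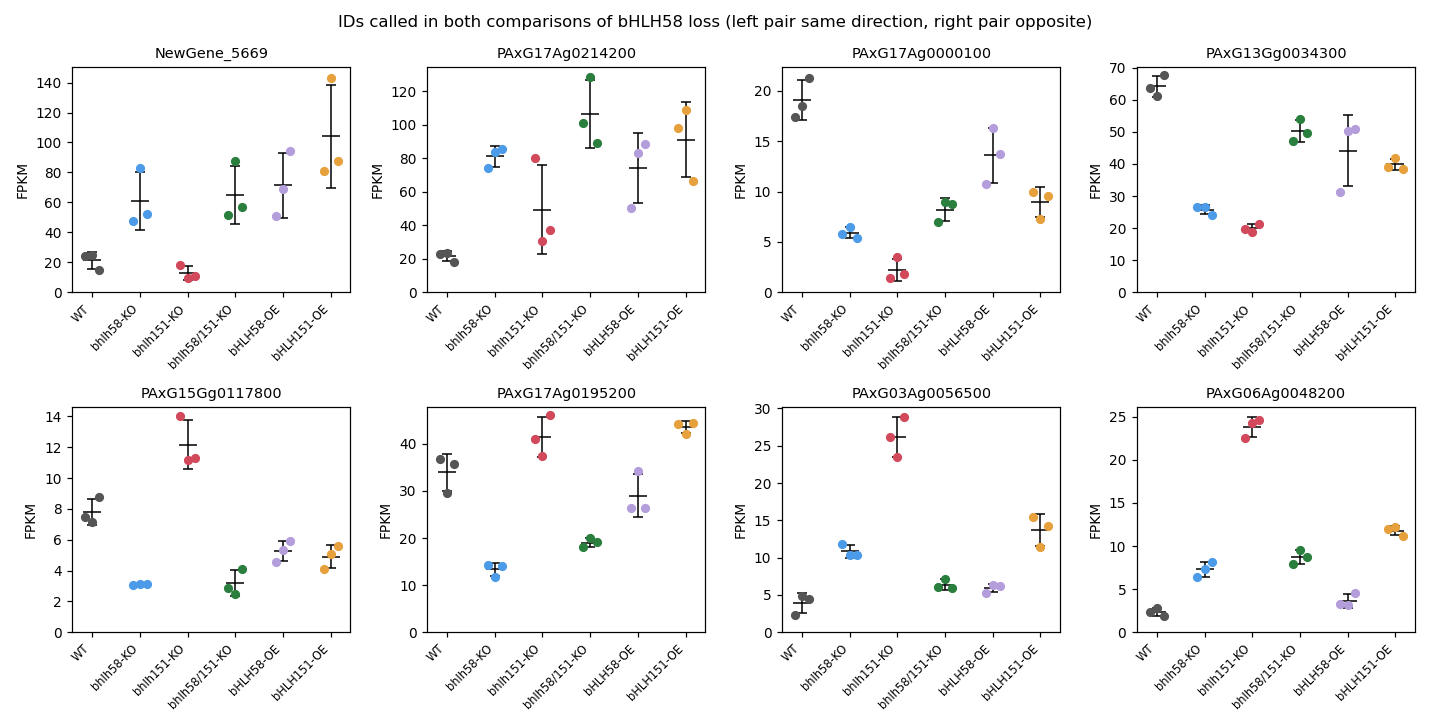
FPKM (y axis, from 0) of 8 IDs called both in the double knockout against bhlh151-KO and in bhlh58-KO against WT, in the 3 libraries of each of the 6 groups (x axis); points are libraries and bars the mean and SD of 3. The left pair of panels in each row moved in the same direction in both comparisons and the right pair in opposite directions.

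The overexpression lines, compared with WT, also share no library with the double knockout or bhlh151-KO. The comparison of bHLH151-OE with WT called 13091 IDs (32.0%), 4722 higher (11.5%) and 8369 lower (20.4%). Of the 6419 IDs higher in the double knockout than in bhlh151-KO, 50.1% were lower in bHLH151-OE than in WT, and of the 4107 lower IDs 52.1% were higher in bHLH151-OE. Among the 6107 IDs called in both comparisons, 5360 (87.8%) were opposite and 747 alike, with a Pearson's r of -0.446 and a Spearman's rho of -0.397 over all 40951 IDs. The opposite share was 86.3% to 88.9% in 26 alternatives. In most of the IDs called in both, bHLH151-OE thus departed from WT in the direction in which bhlh151-KO departed from the double knockout, as in NewGene_1461 and PAxG07Gg0080800 above.

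For bHLH58-OE the relation was weak. Its comparison with WT called 2199 IDs (5.37%), 3.30% higher and 2.07% lower, a count that fell to 1338 and 1403 without WT replicate 1 or 3 and to 1423 and 1361 without bHLH58-OE replicate 1 or 3. Of the IDs called in both comparisons, 620 were opposite and 418 alike, 59.7% of 1038, and Pearson's r was -0.051 over all tested IDs. Of the IDs higher in the double knockout, 299 were higher (4.66%) and 303 lower (4.72%) in bHLH58-OE. Over all tested IDs these shares were 3.30% and 2.07%, so the even counts lean to the opposite direction. Of the IDs lower in the double knockout, 317 were higher (7.72%) and 119 lower (2.9%) in bHLH58-OE.

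Some of the strong differences lay next to one another in the ID order. The numbers in the IDs of the forms PAxG..A and PAxG..G were taken as an order, which the files do not explain. Of 524 such IDs at least 2-fold higher, 62 (11.8%) had a directly neighbouring tested ID that was at least 2-fold higher too, while 2.70% of all 38211 tested IDs of these forms had such a neighbour. Of 495 lower IDs, 68 (13.7%) had a lower neighbour, beside 2.54% of all. Neighbours of the opposite direction were found for 14 higher and 15 lower IDs (2.67% and 3.03%). No test was made of these shares, and how reads matching several genes were assigned is not given in the sources used here. Most of these groups were pairs: 26 of the higher and 28 of the lower runs held 2 IDs.

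The longest run held 4 tested IDs from PAxG05Ag0135100 to PAxG05Ag0135600, all at least 2-fold higher in the double knockout. At its start the bhlh151-KO level was near 0, as given above for the first 2 IDs. At its end, PAxG05Ag0135600 was at 12.5, 14.1 and 14.9 FPKM in the double knockout and 5.59, 4.46 and 4.34 in bhlh151-KO (log2 fold change 1.36 with an SE of 0.103, limma adjusted p = 5.66e-09). Here the reduction in bhlh151-KO was partial, and the bHLH151-OE libraries, at 7.89, 8.87 and 9.61, lay between the 2 groups. The ID between these, PAxG05Ag0135400, which was picked after its values were seen, was at 16.9 ± 0.285 FPKM against 4.64 ± 0.402 (SD, n = 3), with 12.2 ± 0.75 in bHLH151-OE and 18.0 ± 1.92 in WT. The next tested IDs on either side were not called (limma adjusted p = 0.425 before the run and 0.515 after it).

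**Figure D5:**
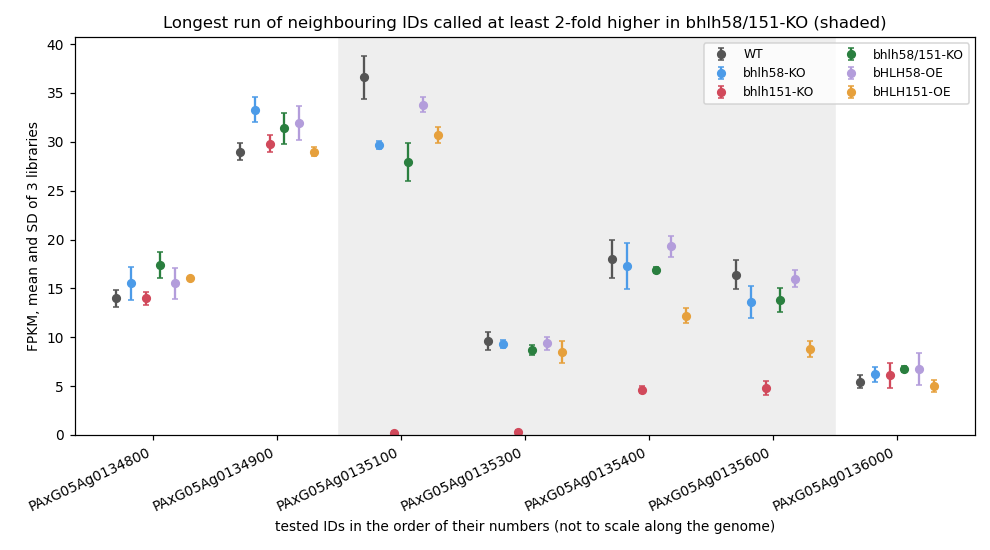
FPKM as mean and SD of 3 libraries (y axis, from 0) of the tested IDs in and beside the longest run, in the order of their numbers and not to scale (x axis), by group. In the 4 shaded IDs bhlh151-KO (red) is the lowest group, near 0 in the first 2 and at 4.64 and 4.80 FPKM in the others, and the double knockout (green) is at 27.9, 8.70, 16.9 and 13.8 FPKM.

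Calls of any size were spread evenly over the main kinds of ID. Among IDs with the letter A, 15.7% were higher and 10.1% lower in the double knockout, among those with the letter G 15.8% and 9.99%, and among NewGene IDs 15.2% and 9.87%. At 2-fold or more, NewGene IDs leaned to lower, with 1.1% higher and 1.69% lower. The shares were 1.32% and 1.31% for the letter A and 1.42% and 1.28% for G. Among the 14 tested IDs of other forms, 0 were called. The share of calls varied modestly with the 2-digit number in the ID, and it did so alike for both letters. IDs numbered 17 had 18.5% (A) and 18.8% (G) higher and 7.58% and 7.27% lower, those numbered 19 had 18.7% and 19.1% higher, and those numbered 13 had 14.0% and 13.4% higher. IDs numbered 2 had the most lower calls, 12.6% (A) and 12.9% (G). Over the 19 numbers, the shares of A and G IDs had a Pearson's r of 0.915 for higher and 0.842 for lower calls, as a description of numbers that share the same libraries and tests.

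Differences were called more often in abundant transcripts. With IDs classed by the midpoint of both groups on the log2 scale, 9.23% were higher and 2.57% lower under 1 FPKM, 17.1% and 12.7% at 5 to 20 FPKM, and 31.9% and 33.2% at 100 FPKM or more. At 2-fold or more, the shares were 0.288% and 0.236% under 1 FPKM and 4.93% and 3.15% at 100 or more. The log2(FPKM + 1) scale shrinks the changes of low IDs, and how far that accounts for the trend was not tested. The balance of directions within a class depended on scaling and on how IDs were classed. At 100 FPKM or more, 24.5% were higher and 38.6% lower under median-of-ratios scaling. With IDs classed by their mean in the 12 libraries outside the comparison, 4.88% were higher and 6.19% lower under 1 FPKM, and 42.3% and 25.8% at 100 FPKM or more.

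Few IDs were listed at 0 in all libraries of one group and at 1 FPKM or more in all libraries of the other. There were 3 at 0 in the double knockout and 1 at 0 in bhlh151-KO. The former were each at 0 in all libraries of another group as well. For PAxG01Ag0171000 and PAxG07Ag0099800 this was bHLH151-OE, and for PAxG07Gg0067200 it was bhlh58-KO. PAxG07Ag0099800 was not called (limma adjusted p = 0.12). The ID at 0 in bhlh151-KO, NewGene_7154, was picked for this after its values were seen. Its values were 1.60, 1.20 and 1.91 FPKM in the double knockout and 0, 0 and 0 in bhlh151-KO (limma adjusted p = 5.16e-05). It was at 3.58, 1.67 and 2.10 in bhlh58-KO, at 1.03, 1.75 and 0.901 in bHLH58-OE, at 0.264, 0.573 and 1.1 in bHLH151-OE and at 0.29, 0.306 and 0 in WT. Every library of the double knockout, bhlh58-KO and bHLH58-OE was thus above every WT library. A value of exactly 0 may be an estimate that failed, so no fold is given.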

How the data were processed

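Root RNA of 18 libraries was sequenced, with total RNA taken by the RNAprep Pure Plant Kit and libraries made by a NEBNext Ultra kit, per the labels' protocols. The authors deposited 1 table of FPKM values, the unit given by its name. Per the submitters' processing notes DESeq2 was used, with no role named. The sources used here do not give the aligner, genome build, annotation or filters. A search for whole-read steps in 15 pairs of libraries found at most 1.4% of low-value ratios in 1 bin, so no counts were recovered.

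Values were tested as log2(FPKM + 1) for IDs that reached 1 FPKM in 3 or more libraries, in 1 limma fit of all groups (limma 3.58.1, R 4.3.3, trend and robust eBayes, 12 residual degrees of freedom), with Benjamini-Hochberg adjustment over 40951 IDs. Fold changes on this scale understate changes of low IDs. The procedure was tested on simulated data with independent noise per ID and shifts in few IDs, a simpler setting than these libraries.

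Members, lists and comparisons were chosen with earlier results of these data known. Named IDs were, per direction, the 2 with the largest fold change (called, at least 2-fold, no overlap, mean of at least 5 FPKM), the 2 with the largest FPKM difference, the 2 with the largest shared and the 2 with the largest opposite change in both removals of bHLH58, and the ends of the longest run. Lists of root cell type markers could not be applied, as IDs carry no names. Other settings tried were 3 other scalings, a pseudocount of 0.1, a filter at a mean of 5 FPKM or none, plain eBayes, a replicate block, a fit of both groups alone and leaving out each replicate.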

Additional observations from a re-analysis of the deposited data

Results flagged for a closer look

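For 14 of the 17 named IDs, the change with loss of bHLH58 differed between bhlh151-KO and WT backgrounds, by the limma interaction contrast. Over all tested IDs, 29.3% were called in this contrast. Not called were NewGene_5669, PAxG17Ag0214200 and PAxG17Ag0195200 (limma adjusted p = 0.237, 0.296 and 0.33). Each value is the log2 change of the double knockout against bhlh151-KO minus that of bhlh58-KO against WT. The difference was positive for PAxG05Ag0135100 (4.91), PAxG05Ag0135300 (2.97), PAxG05Ag0135600 (1.61), PAxG17Ag0000100 (3.09), PAxG13Gg0034300 (2.57), PAxG14Ag0010700 (1.5) and PAxG05Gg0148200 (0.77), with limma adjusted p from 1.73e-14 to 9.24e-07. It was negative for NewGene_1461 (-3.73), PAxG07Gg0080800 (-3.28), PAxG03Ag0056500 (-3.19), PAxG06Ag0048200 (-2.65), PAxG13Ag0003400 (-1.09) and PAxG05Ag0214300 (-0.92), with limma adjusted p from 9.71e-12 to 6.52e-09, and for PAxG15Gg0117800 (-0.57, limma adjusted p = 0.0296). All 14 were chosen on the double knockout against bhlh151-KO, which is one term of this contrast, and PAxG17Ag0000100, PAxG13Gg0034300, PAxG03Ag0056500 and PAxG06Ag0048200 also for opposite directions, so none of the differences is an independent finding. Each contrast compares 1 line per genotype, and a peculiarity of line 40 of bhlh151-KO would enter every one of these values; its part was not tested.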

How the results depend on the processing

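The number of IDs called between the double knockout and bhlh151-KO stayed within 1.5 times of 10526 under its 15 alternatives, from 7132 to 10701. It was 8724 to 9365 with 1 replicate left out. The 7132 calls were among IDs with a mean of at least 5 FPKM, where 19535 IDs were tested instead of 40951. With a pseudocount of 0.1, the 2-fold calls rose to 1324 higher and 869 lower, from 554 and 541. The calls of bHLH151-OE against WT were 8114 among IDs with a mean of at least 5 FPKM, where fewer IDs were tested, and those of bHLH58-OE against WT ran from 1338 to 1719 with 1 replicate left out. The same-direction and opposite counts of both bHLH58 removals ran from 749 to 1000 and from 2179 to 2737. For the 17 named IDs, 744 of 755 values under alternatives kept their direction and side of the threshold, 11 lost the call (those given above for PAxG17Ag0214200 and PAxG15Gg0117800) and 0 reversed. Counts of 2-fold calls, of the overexpression lines and of the named differences were added to the alternatives after the data were seen.

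Equally numbered libraries showed no shared shift: their deviations in the double knockout and bhlh151-KO correlated at -0.0318, 0.000534 and 0.0271. Whether they were handled together cannot be settled from these values. With the replicate block, 10324 IDs were called between the double knockout and bhlh151-KO, against 10526 without it. For bhlh58-KO against WT, 9000 IDs were called with the block and 9158 without it. The shares by level class also depended on how IDs were classed. By their mean in the 12 libraries outside the comparison, 10.4% of IDs at 100 FPKM or more were at least 2-fold higher and 1.68% lower, against 4.93% and 3.15% by the midpoint of both groups, and under 1 FPKM the shares were 0.115% and 1.11%, against 0.288% and 0.236%. Unknown depth leaves no counting error for any value.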
